A study of Mus musculus with 2 samples.

Results

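Piwi-interacting RNAs (piRNAs) are the small RNAs of the germ line, and the sequences described here are those with their length, 26 to 32 nt, in small RNA libraries from the nucleus and the cytoplasm of mouse dendritic cells. A row of the deposited table was a member if its sequence was 26 to 32 nt long, and nothing else was used to choose it. The members numbered 28918 of 538100 listed sequences (5.37%). They held 49780 reads in the nuclear library and 22579 reads in the cytoplasmic library.

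The study sequenced small RNAs, listed in the deposited table at 18 to 39 nt, from bone marrow-derived dendritic cells, antigen-presenting cells grown from C57BL/6 bone marrow. The nuclear group was RNA from the pellet that held the nuclei, and the cytoplasmic group was RNA from the fraction left after the swollen cells were spun down; the table's columns differ only in a last letter, N or C, which was read as nuclear or cytoplasmic from the sample titles. Both groups came from cells cultured for 7 days with GM-CSF and IL-4, and the labels give LPS, a bacterial stimulant, as the treatment of both, with no unstimulated library. There was 1 library in each group, of 2000019 reads in the nuclear library and 2041383 reads in the cytoplasmic library. No comparison below therefore has a replicate check or a p-value. Exact 95% intervals are given, and they cover counting error alone. The reads were not counted by molecular identifiers, so copies made by PCR cannot be told apart from separate molecules. The labels do not say whether cells of 1 or more animals were pooled, and a pellet prepared this way may also hold material other than nuclei.

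piRNAs guide Piwi proteins, a branch of the Argonaute family, to silence transposons and other transcripts, and in mammals they are known above all from testis and ovary. Primary piRNAs usually begin with U. In the ping-pong cycle, in which Piwi proteins cut sense and antisense transcripts in turn, the secondary piRNA carries A at position 10, and the partners overlap by 10 nt at their 5′ ends. Fragments of snoRNAs, rRNAs, tRNAs and mRNAs can have the same length, as can miRNAs with nucleotides added to their 3′ end. The 5′ base, the base at position 10 and the transcript of origin were therefore read together.

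The members that the results turn on are of 3 kinds, and sequences of each are shown here as the deposited table writes them, with T for U. The first kind, which held most of the cytoplasmic member reads with both U at the 5′ end and A at position 10, was miR-146b-5p with 3′ nucleotides that its hairpin does not have. How adapters were removed is not given in the sources used here, and where these nucleotides come from was not tested. RefSeq (GRCm38.p6) gives its mature form at chr19:46342790-46342811 on the plus strand, shown with the seed, bases 2 to 8, in capitals, and the 4 most abundant members follow with the nucleotides that do not match the hairpin in capitals.
mmu-miR-146b-5p: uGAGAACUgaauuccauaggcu
miR-146b with 3 unmatched 3′ nt, ending GAT: tgagaactgaattccataggctgGAT
miR-146b with 3 unmatched 3′ nt, ending GAA: tgagaactgaattccataggctgGAA
miR-146b with 2 unmatched 3′ nt, ending AT: tgagaactgaattccataggctgtAT
miR-146b with 2 unmatched 3′ nt, ending AA: tgagaactgaattccataggctgtAA

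The second kind was snoRNA fragments, the largest matched class of the nuclear library. The most abundant member of 5 snoRNAs is shown, with the letters TGATGA, the core of the C box that marks C/D box snoRNAs, in capitals.
Snord14c: tcgctgTGATGAtggattccaaaacc
Snord55: gcggaTGATGAcacctgggtatgctgc
Snord89: gaggagTGATGAcataaaaggccgaa
Gm23212: ctgcaTGATGAcgaacaaatactgact
Gm25091: cttaaTGATGAttgtctgtttgattg

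The third kind matched no transcript. The transcript set lacks most nuclear tRNAs and any rRNA longer than 1849 nt, and the origin of these sequences was not tested. The most abundant members of 5 families of overlapping unmatched sequences are shown with bases 1 and 10 in capitals, since these are the bases that mark piRNAs.
Unmatched family 1: CgagaacttTgaaggccgaagtggag
Unmatched family 2: CgcggctggGagtttgctcgcagggc
Unmatched family 3: CgactcttaGcggtggatcactcggc
Unmatched family 4: CggcgatgaTgacactccatacatag
Unmatched family 5: TgggaaatgTggcgtacggaagaccc

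Reads of piRNA length formed no peak of their own. They made up 2.49% of the nuclear reads (95% interval 2.47 to 2.51) and 1.11% of the cytoplasmic reads (1.09 to 1.12), a nuclear share 2.25 times the cytoplasmic share (2.22 to 2.29). The ratio was 1.28 (1.26 to 1.30) among reads outside the miRNA class and 1.35 for a window of 24 to 32 nt. Numbers fell at each added nucleotide in both libraries. At 26 nt there were 34473 nuclear reads and 16936 cytoplasmic reads. At 27 nt there were 11995 nuclear and 4578 cytoplasmic reads, and at 28 nt 2728 nuclear and 858 cytoplasmic reads. Thus 93.3% of the nuclear member reads and 95.3% of the cytoplasmic member reads were of 26 or 27 nt, next to the miRNA lengths and at the short end of the piRNA range. From 29 to 32 nt, the length of many piRNAs of adult testis, there were 584 nuclear reads and 207 cytoplasmic reads. Just outside the range, there were 70357 nuclear and 33559 cytoplasmic reads at 25 nt, and 57 nuclear and 114 cytoplasmic reads at 33 nt. The ratio of shares was above 1 at each length from 26 to 29 nt, and the intervals at 30 and 32 nt included 1. A ratio near that of the members was also found at 25 nt, at 2.14 (2.11 to 2.17), at 19 nt, at 1.92, and at 18 nt, at 1.98. At 22 nt it was 0.711 and at 33 nt 0.510. The higher nuclear share was thus not particular to 26 to 32 nt.

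**Figure D1:**
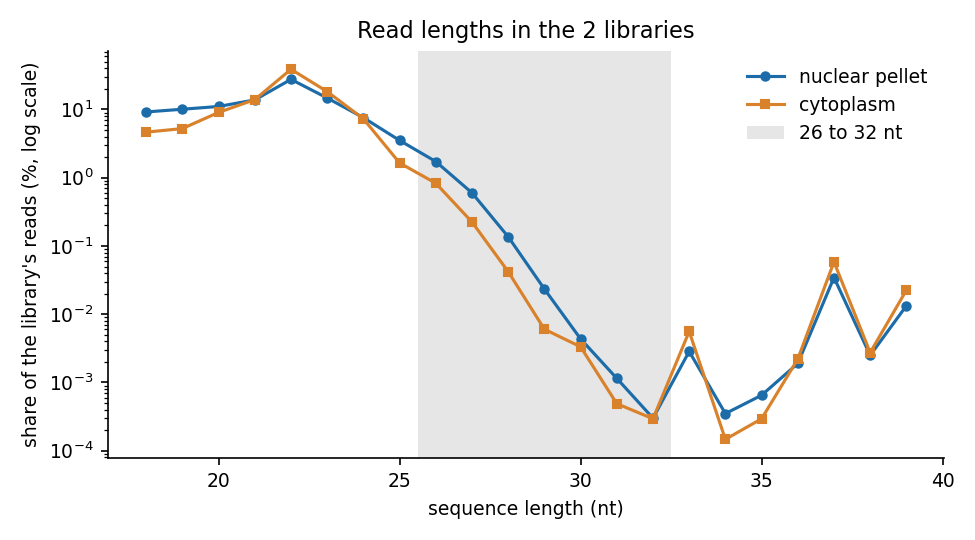
Share of each library's reads (%, log scale) by sequence length in nt, nuclear pellet as circles and cytoplasm as squares, with 26 to 32 nt shaded. Within the shaded band both curves fall steadily from 26 nt, where the nuclear pellet had 1.72% and the cytoplasm 0.830% of reads, and neither shows a second maximum there.

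The nuclear share was higher in reads and not in kinds of sequence. Of the distinct sequences detected in each library, 20309 of 400087 nuclear ones and 10011 of 169208 cytoplasmic ones were members, so that the nuclear share of distinct sequences was 0.858 times the cytoplasmic one (0.838 to 0.879). Most members were rare: 23662 of the 28918 (81.8%) had a single read over both libraries. Of the members, 1402 were detected in both libraries, 18907 in the nuclear library alone and 8609 in the cytoplasmic library alone. This was not particular to the members. Of the 538100 sequences of all lengths, 400087 were nuclear and 169208 cytoplasmic, so most of those too were in 1 library alone.

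Bases typical of piRNAs were less common in the nuclear library than in the cytoplasmic one. U stood at the 5′ end of 23.4% of the nuclear member reads (23.0 to 23.8) and of 42.8% of the cytoplasmic ones (42.1 to 43.4). A stood at position 10 in 21.4% of the nuclear member reads (21.0 to 21.7) and in 42.2% of the cytoplasmic ones (41.5 to 42.8). Both bases occurred together in 7.33% of nuclear reads (7.10 to 7.56) and in 29.9% of cytoplasmic reads (29.3 to 30.5). The intervals of the 2 libraries do not overlap for any of the 3 shares.

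Most of the cytoplasmic reads with both bases came from 1 miRNA. miR-146b, of the LPS-induced miR-146 family known for dampening Toll-like receptor signalling, begins with U and has A at position 10. Members that start with its first 18 nt numbered 197, with 1112 nuclear reads and 5127 cytoplasmic reads. They made up 2.23% of the nuclear and 22.7% of the cytoplasmic member reads. Of the member reads with both bases, they made up 30.5% in the nuclear library and 76.0% in the cytoplasmic library. Without them, U at the 5′ end stood at 21.7% of nuclear reads (21.3 to 22.04) and 25.97% of cytoplasmic reads (25.3 to 26.6). A at position 10 then stood at 19.6% of nuclear reads (19.2 to 19.9) and 25.2% of cytoplasmic reads (24.5 to 25.8), and both bases at 5.21% of nuclear reads (5.01 to 5.41) and 9.26% of cytoplasmic reads (8.83 to 9.70). The shares were thus closer together, with the nuclear ones still lower by more than the counting error. Over distinct sequences, each counted once, U at the 5′ end was instead slightly more frequent in the nuclear library, at 25.9% of nuclear and 25.3% of cytoplasmic sequences, while both bases stood at 7.50% nuclear and 9.34% cytoplasmic.

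Set beside the other positions of the reads, neither base stood out once miR-146b was removed. In the nuclear library, the share of U at position 1 ranked 11 and the share of A at position 10 ranked 25 among the first 26 positions. In the cytoplasmic library, U at position 1 ranked 4 and A at position 10 ranked 20. The base that did stand out at the 5′ end of the remaining cytoplasmic reads was A, at 42.0%, the highest of the 26 positions, against a median of 27.5% at the others. In the nuclear library A at position 1 was 28.4%.

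**Figure D2:**
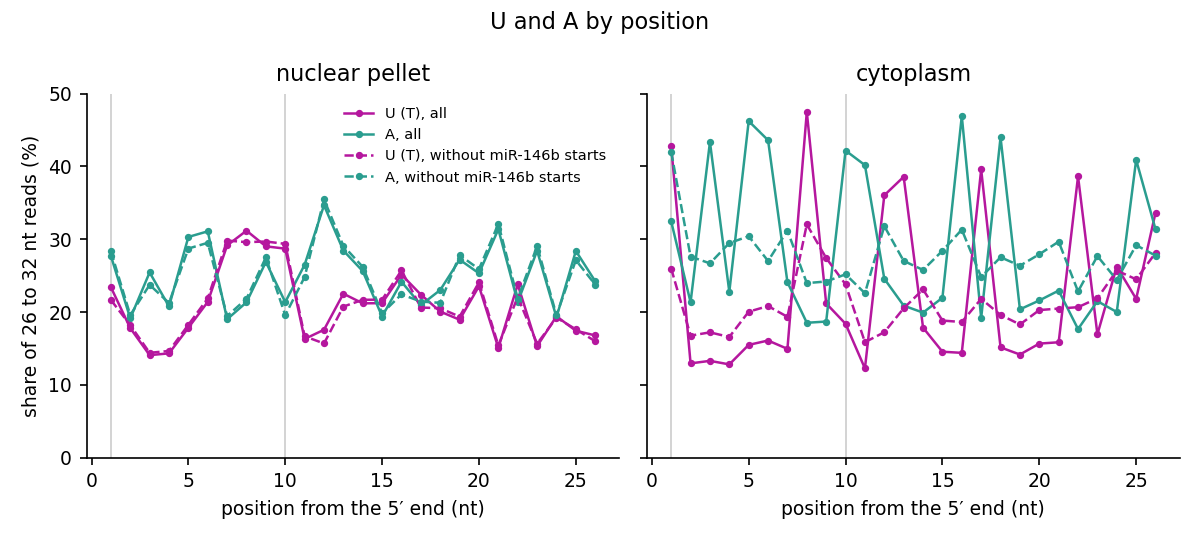
Share of 26 to 32 nt reads (%) with U, written T in the table (purple), or A (green) at each of the first 26 positions, for the nuclear pellet at left and the cytoplasm at right, over all members (solid) and without members that start as miR-146b does (dashed). Grey lines mark positions 1 and 10. The solid cytoplasmic curves follow the letters of miR-146b, with U at 42.8% at position 1 and A at 42.2% at position 10. The dashed ones are flatter, with 25.97% and 25.2%.

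The same 2 bases were also frequent outside the piRNA range. Both occurred together in 30.97% of nuclear and 52.8% of cytoplasmic reads of 18 to 25 nt, the range of miRNAs. In reads of 33 to 39 nt, too long for most piRNAs, they occurred in 56.0% of nuclear and 81.4% of cytoplasmic reads, and in 22.7% of nuclear and 67.9% of cytoplasmic reads without those that start as miR-146b does. With the miRNA class left out, the reads of 18 to 25 nt had both bases in 6.42% of nuclear and 11.8% of cytoplasmic reads, against 4.78% of nuclear and 9.70% of cytoplasmic members outside that class. By length, the cytoplasmic share of reads with both bases was 34.5% at 26 nt, 17.4% at 27 nt, 8.28% at 28 nt and 3.25% at 29 nt. At 30 nt it was 44.1% of 68 reads, of which 24 began as miR-146b does, and 13.6% without those.

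The miR-146b members were built alike in both libraries. Of their reads, 70.7% in the nuclear library and 71.3% in the cytoplasmic library matched the hairpin over 23 nt, and 25.99% nuclear and 26.9% cytoplasmic over 24 nt. Beyond the match, 67.7% of nuclear and 68.2% of cytoplasmic reads carried 3 nucleotides that the hairpin does not have. The last base was U in 53.1% of nuclear and 54.5% of cytoplasmic reads and A in 42.9% of nuclear and 42.0% of cytoplasmic reads. The form ending GAT had 289 nuclear reads and 1250 cytoplasmic reads, and the form ending GAA had 243 nuclear and 1141 cytoplasmic reads. The form ending in AT after 24 matching nt had 136 nuclear and 634 cytoplasmic reads, and that ending in AA 100 nuclear and 467 cytoplasmic reads. Each of these 4 was between 4.24 and 4.60 times more abundant in the cytoplasm than in the nucleus relative to all reads of the library. The fifth, which ends GTT after 23 matching nt, had 44 nuclear and 334 cytoplasmic reads, a cytoplasmic share 7.44 times the nuclear one (5.42 to 10.4). These 5 were also the 5 most abundant cytoplasmic members with both bases. In the nuclear library the fifth place was taken by a miR-155 variant with 66 nuclear and 56 cytoplasmic reads.

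The long forms were a small part of miR-146b itself. Of all sequences that start as it does, 3.37% of 33031 nuclear reads and 5.27% of 97258 cytoplasmic reads were of 26 to 32 nt, while 49.2% nuclear and 51.9% cytoplasmic were of 24 nt. The miRNA class had 76 genes with at least 1000 reads, among them Snord43, a snoRNA by name. The median share of a gene's cytoplasmic reads at 26 to 32 nt was 0.0320%. Mir146b stood at 3.14% in the nuclear and 4.91% in the cytoplasmic library. It ranked 3 of the 76 by that share over both libraries, after Mir30e and Mir181b-2. Mir30e had 14 long reads of 419 in the nuclear library and 54 of 1014 in the cytoplasmic library, and Mir181b-2 had 55 of 1691 nuclear and 169 of 3227 cytoplasmic reads.

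By origin, the nuclear library held more snoRNA and less miRNA. snoRNAs, which guide the modification and cleavage of rRNA in the nucleolus, held 6468 nuclear and 324 cytoplasmic member reads, 12.99% of the nuclear and 1.43% of the cytoplasmic members, and their nuclear share of all reads was 20.4 times the cytoplasmic one (18.2 to 22.9). miRNAs, which work mostly in the cytoplasm within Argonaute proteins, held 1933 nuclear and 6411 cytoplasmic reads, 3.88% of the nuclear and 28.4% of the cytoplasmic members, with a ratio of 0.308 (0.292 to 0.324). The miRNA direction rests on matches made after 3′ nucleotides were taken off: with exact matches alone the ratio was 1.17 (0.981 to 1.40). rRNA held 1687 nuclear and 1241 cytoplasmic reads, with a ratio of 1.39 (1.29 to 1.49). Of these, 1641 nuclear and 1215 cytoplasmic reads were of Gm42418, which covers 18S rRNA sequence. The class holds only rRNA present in the transcript set, so its share and ratio are not those of all rRNA. The direction depends on the scaling. The median log2 ratio of the 2 rRNA genes with at least 50 reads was 0.68 as a share of all reads. It was -0.07 with TMM factors and -0.16 with median-of-ratios factors. mRNA fragments numbered 3533 nuclear and 3648 cytoplasmic reads, with a ratio of 0.989 whose interval (0.944 to 1.04) includes 1. That ratio was 1.42 (1.28 to 1.56) without sequences of 1 read, 1.21 (1.18 to 1.24) at 24 to 32 nt and 1.82 (1.74 to 1.91) with scaling to miRNA reads. Of the smaller classes, snRNA, the RNAs of the spliceosome, had a ratio of 3.15 (2.66 to 3.76). Other small RNA had 4.74 (3.90 to 5.80), or 2.40 without its most abundant sequence. Long non-coding RNA had 6.00 (4.52 to 8.09) and retained introns 8.62 (6.53 to 11.6). Mitochondrial RNA went the other way as a share of all reads, with 359 nuclear and 507 cytoplasmic reads and a ratio of 0.723 (0.630 to 0.829).

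Sequences with no full match made up the largest class in both libraries. They numbered 19172, with 33657 nuclear and 10003 cytoplasmic reads, 67.6% of the nuclear (67.2 to 68.0) and 44.3% of the cytoplasmic members (43.7 to 45.0), a ratio of 3.43 (3.36 to 3.51). The absence of a match is not a sign of a piRNA. No genome was used, and the transcript set held 10 of 408 nuclear tRNA loci and no rRNA transcript longer than 1849 nt. Most nuclear tRNAs, any rRNA missing from the set, long or short, and intergenic RNA therefore could not be matched. Whether the unmatched sequences shown here are fragments of rRNA or tRNA was not tested. Reads written backwards, which gauge chance matches over the full length, matched for 33 nuclear and 36 cytoplasmic reads. Chance matches after removal of 3′ nucleotides were not gauged this way.

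**Figure D3:**
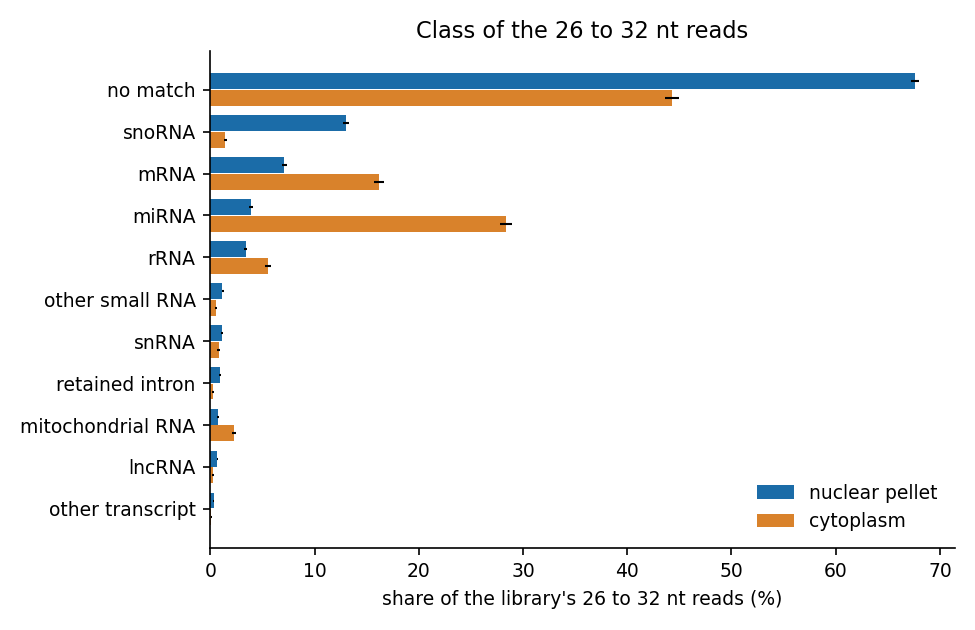
Share of each library's 26 to 32 nt reads (%) by class of transcript, nuclear pellet above and cytoplasm below in each pair, with exact 95% intervals as black lines. Unmatched sequences lead in both libraries (67.6% nuclear, 44.3% cytoplasmic), followed by snoRNA in the nuclear pellet (12.99%) and miRNA in the cytoplasm (28.4%). The rRNA bars hold only rRNA present in the transcript set.

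In the unmatched class, the bases typical of piRNAs were less frequent than over all members. U at the 5′ end stood at 18.4% of its nuclear and 30.4% of its cytoplasmic reads, A at position 10 at 18.7% nuclear and 27.02% cytoplasmic, and both at 4.56% nuclear and 12.6% cytoplasmic. Among members matched outside the miRNA class, U at the 5′ end stood at 28.03% nuclear and 18.8% cytoplasmic and both bases at 5.30% nuclear and 5.08% cytoplasmic, so that the unmatched reads were below these in the nuclear library and above them in the cytoplasmic one. Some of these reads matched a miRNA over a shorter stretch: when any number of 3′ nucleotides could be removed, 573 nuclear and 1208 cytoplasmic reads of the class matched a miRNA. Among the 17920 sequences that still matched no small RNA, both bases stood at 3.56% of nuclear reads (3.36 to 3.76) and 5.78% of cytoplasmic reads (5.30 to 6.29). If the 2 bases fell independently in those reads, the products of their shares would be 3.10% nuclear and 5.41% cytoplasmic. A at position 10 followed a 5′ U in 20.54% of nuclear and 23.4% of cytoplasmic reads, and another 5′ base in 17.3% nuclear and 21.4% cytoplasmic. The 1277 sequences with both bases in this remainder had 1165 nuclear and 502 cytoplasmic reads, and 1104 of them had a single read; the most abundant had 14 nuclear or 27 cytoplasmic reads.

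mRNA fragments had both bases in 6.74% of nuclear and 6.44% of cytoplasmic reads. snoRNA fragments began with U in 33.9% of nuclear and 46.0% of cytoplasmic reads but had A at position 10 in 14.3% nuclear and 10.5% cytoplasmic. Members of the miRNA class had both bases in 70.4% of nuclear and 80.7% of cytoplasmic reads.

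Of the 10 most abundant nuclear members, 9 matched no transcript and the other came from Snord14c. The 9 fell into 6 families of overlapping sequences, built by joining unmatched members that share a run of 20 nt. Family 1 had 180 sequences over 56 nt, with 3759 nuclear and 415 cytoplasmic reads, 9.25 times higher in the nuclear library (8.35 to 10.3); its leading sequence had 1642 nuclear and 72 cytoplasmic reads, and the sequences that begin a base earlier and a base later had 566 nuclear and 25 cytoplasmic reads and 496 nuclear and 135 cytoplasmic reads. Family 2 had 90 sequences over 34 nt, with 2475 nuclear reads and 0 cytoplasmic reads, and was at least 842-fold higher in the nuclear library, taking the floor of 3 reads for the cytoplasmic library. Its leading sequence had 815 nuclear reads, and the next, longer by a base, had 648. Family 4 is led by a sequence that holds the letters TGATGA, with 1304 nuclear and 40 cytoplasmic reads. The family had 1657 nuclear and 60 cytoplasmic reads, 28.2 times higher in the nuclear library (21.8 to 37.1), and 98.1% of its reads began at the same base.

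Families 3 and 5 were less one-sided. Family 3 had 1800 nuclear and 452 cytoplasmic reads, 4.06 times higher in the nuclear library (3.66 to 4.52), and was led by a sequence with 698 nuclear and 244 cytoplasmic reads. Family 5 had 1043 nuclear and 515 cytoplasmic reads, 2.07 times higher (1.86 to 2.30), although its leading sequence had 275 nuclear and 381 cytoplasmic reads.

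Other unmatched sequences named by their abundance were a further pair from families higher in the nuclear library and a pair from families higher in the cytoplasmic library.
Unmatched family 6: CgcgacctcAgatcagacgtggcgac
Unmatched family 7: AtcggtcgtCcgacctgggtataggg
Unmatched family 13: TgggtcatgTgaacagcagttgaaca
Unmatched family 16: AagagggcgTgaaaccgttaagaggt
Family 6 had 990 nuclear and 280 cytoplasmic reads, 3.61 times higher in the nuclear library (3.16 to 4.14), a ratio below that of family 3. Its leading sequence held 519 nuclear and 150 cytoplasmic reads and was among the 10 most abundant members of each library. A stood at position 10 in 78.3% of the family's reads and U at the 5′ end in 1.18%. Family 7 was led by a sequence of 794 nuclear and 33 cytoplasmic reads and had 1181 nuclear and 67 cytoplasmic reads, 17.99 times higher in the nuclear library (14.1 to 23.4). The leading sequence of family 13 had 0 nuclear and 142 cytoplasmic reads, at least 46.4-fold higher in the cytoplasm by the same floor, while the family as a whole had 138 nuclear and 270 cytoplasmic reads. Family 16 had 78 nuclear and 253 cytoplasmic reads, 3.18 times higher in the cytoplasmic library (2.46 to 4.15). Over the 10 largest families of each library, 16 in all, a family covered 30 to 85 nt and had 3 to 39 different 5′ ends.

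Outside families, 12430 unmatched sequences shared no run of 20 nt with another. They held 11026 nuclear reads (32.8% of the unmatched nuclear reads) and 2749 cytoplasmic reads (27.5%), with U at the 5′ end in 27.2% of nuclear and 23.6% of cytoplasmic reads and A at position 10 in 26.9% nuclear and 29.8% cytoplasmic. Allowing 2 mismatches to a small RNA or rRNA transcript accounted for 1369 nuclear and 870 cytoplasmic reads of the unmatched class, of which rRNA had 540 nuclear and 424 cytoplasmic reads, miRNA 273 nuclear and 315 cytoplasmic reads and snoRNA 406 nuclear and 18 cytoplasmic reads. The same search with the sequences written backwards matched 1 sequence.

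Many members were longer versions of more abundant shorter sequences. A sequence of 18 to 25 nt with the same first 18 nt and more reads in the same library existed for 51.2% of nuclear member reads (50.8 to 51.6) and 61.5% of cytoplasmic member reads (60.9 to 62.1). The share was 97.7% nuclear and 99.4% cytoplasmic for miRNAs, 79.9% nuclear and 81.4% cytoplasmic for rRNA, 65.9% nuclear and 59.9% cytoplasmic for snoRNAs, 48.4% nuclear and 54.0% cytoplasmic for unmatched sequences, and 8.01% nuclear and 9.07% cytoplasmic for mRNA.

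Members were then summed by the annotated small RNA or gene they came from. Of 4036 such transcripts with a read, 63 had at least 50 reads over both libraries, and 35 of them were at least 2-fold higher in the nuclear library and 13 at least 2-fold lower, each with an interval of the ratio that excludes 1. That is 55.6% higher and 20.6% lower. Over reads of all lengths, 911 small RNAs and genes had at least 50 reads, of which 42.0% were higher and 9.88% lower by the same rule. The median log2 ratio was 1.71 over the 63 and 0.67 over the 911. Other scalings moved every log2 ratio by the same amount, TMM by -0.75, the median of ratios by -0.84 and scaling to miRNA reads by 0.88, and the last left 4 of the 63 lower in the nuclear library.

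All 26 snoRNAs among the 63 were higher in the nuclear library, with log2 ratios from 2.84 to 8.73 and a median of 4.59; the median was 4.40 when the 4 without any cytoplasmic read were set to the floor. At all lengths, 116 of 118 snoRNAs were higher by the same rule. Snord14c, a C/D box snoRNA of the Hspa8 gene, had 682 nuclear and 73 cytoplasmic reads and was 9.54 times higher (7.48 to 12.3). Its leading sequence also lies in a second annotated gene, so its reads may be shared. Snord55, a C/D box snoRNA, had 495 nuclear and 23 cytoplasmic reads, a ratio of 21.97 (14.5 to 35.0). Snord89 had 453 nuclear and 9 cytoplasmic reads, a ratio of 51.4 (26.8 to 113). Rnu3b1, a U3 snoRNA, which is needed for the first cuts of pre-rRNA, had 603 nuclear and 21 cytoplasmic reads, a ratio of 29.3 (19.0 to 47.7). Snora24, an H/ACA box snoRNA of the Snhg8 gene, had 249 nuclear and 9 cytoplasmic reads, a ratio of 28.2 (14.6 to 62.5).

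GENCODE gives further snoRNAs only a gene model name. Gm24452, within the Snhg1 gene, had 424 nuclear and 14 cytoplasmic reads, and Gm23212, within the Gas5 gene, had 240 nuclear and 15 cytoplasmic reads. Gm25091, within the Rpl21 gene, had 208 nuclear and 0 cytoplasmic reads, which the floor makes at least 70.8-fold higher. Gm25970, in an intron of Prpf39, had 152 nuclear reads and Gm22192, in an intron of Prrc2b, had 78, both with 0 cytoplasmic reads. Gm26224, also within Gas5, had 61 nuclear and 0 cytoplasmic reads. These 3 were at least 51.7-fold, 26.5-fold and 20.8-fold higher. Gm24494 had 115 nuclear reads and 1 cytoplasmic read, Gm23246 173 nuclear and 4 cytoplasmic reads, Snord2 168 nuclear and 4 cytoplasmic reads, and Gm23969 113 nuclear and 3 cytoplasmic reads. Of the snoRNAs with a class name, 11 C/D box and 2 H/ACA box ones were among the 63, and every one was higher in the nuclear library.

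Of the other small RNAs, Gm27733, annotated as a small RNA that overlaps an exon of Xist on the X chromosome at chrX:103461218-103461285 on the minus strand (GRCm38), had 379 nuclear reads and 1 cytoplasmic read, a ratio of 387 with a counting interval of 69.0 to 15319. Of 5 snRNAs, 4 were higher in the nuclear library, with Rnu12, of the minor spliceosome, at 78 nuclear and 4 cytoplasmic reads. With TMM or median-of-ratios factors 2 of the 5 were higher. At all lengths, 6 of 11 snRNAs were higher by the same rule as shares of all reads. Rn7sk, the 7SK RNA that holds the elongation factor P-TEFb inactive, had 98 nuclear and 45 cytoplasmic reads, 2.22 times higher (1.55 to 3.24). It fell short of 2-fold with TMM or median-of-ratios factors. Rny1, a Y RNA bound by the Ro protein, had 19 nuclear and 36 cytoplasmic reads, short of a 2-fold difference at a ratio of 0.539 (0.292 to 0.964). Malat1, a nuclear-retained long non-coding RNA, had 71 nuclear and 12 cytoplasmic reads, a ratio of 6.04 (3.25 to 12.2).

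By class, the 13 that were lower in the nuclear library were 9 miRNAs, 3 mRNAs and 1 mitochondrial tRNA. Mir146b had 1013 nuclear and 4708 cytoplasmic reads, 4.55 times higher in the cytoplasm (4.25 to 4.88). Mir21a, the source of an miRNA abundant in many cell types, had 13 nuclear and 68 cytoplasmic reads, 5.12 times higher in the cytoplasm (2.81 to 10.1). Mir222 had 57 nuclear and 208 cytoplasmic reads, Mir191 47 nuclear and 179 cytoplasmic reads, Mir181b-2 55 nuclear and 169 cytoplasmic reads, and Mir30d 36 nuclear and 131 cytoplasmic reads. Mir181a-1, with 27 nuclear and 88 cytoplasmic reads, and Mir30e, with 14 nuclear and 54, were lower as well. So was Gm47301, classed as a miRNA, whose locus GENCODE also lists under the rRNA gene n-R5s193, with 13 nuclear and 43 cytoplasmic reads. The Gm47301 reads began at 11 positions, with 35.7% at the commonest, and whether they are rRNA was not tested. Mir155, an LPS-induced miRNA, did not reach the threshold, with 236 nuclear and 259 cytoplasmic reads and a ratio of 0.930 (0.776 to 1.11). Gm24715, which GENCODE also classes as a miRNA, was the 1 of the 13 miRNAs that was higher in the nuclear library, with 65 nuclear and 20 cytoplasmic reads and a ratio of 3.32 (1.98 to 5.78). Of 185 miRNAs with at least 50 reads at all lengths, the nuclear library was lower for 43 and higher for 25.

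The 3 mRNAs that were lower in the nuclear library were Lyz2, Fth1 and Actb. Lyz2, which encodes the lysozyme of myeloid cells, had 9 nuclear and 87 cytoplasmic reads, 9.47 times higher in the cytoplasm (4.77 to 21.4). Fth1, the ferritin heavy chain, had 14 nuclear and 52 cytoplasmic reads, and Actb, β-actin, had 12 nuclear and 46 cytoplasmic reads. Lars2, annotated as the gene of a mitochondrial leucyl-tRNA synthetase, had 103 nuclear and 131 cytoplasmic reads, a ratio whose interval includes 1 (0.614 to 1.05). At all lengths it had 9224 nuclear and 9159 cytoplasmic reads, against 830 nuclear and 610 cytoplasmic for Thbs1, another of the mRNAs. Whether the Lars2 reads come from its mRNA was not tested. The mRNA members were spread thinly over 6086 sequences of 3130 genes, and 7 genes had 50 reads or more. As shares of all reads, mRNAs leaned the other way at all lengths: 496 had at least 50 reads, and the nuclear library was higher for 177 and lower for 25. Their log2 ratios had a median of 0.61, against -0.79 for the 7, and the lean of 0.61 is smaller than the shifts that TMM and the median of ratios give. mt-Tl1, the mitochondrial leucine tRNA, had 38 nuclear and 99 cytoplasmic reads, 2.55 times higher in the cytoplasm (1.74 to 3.81). Gm42418, which covers 18S rRNA sequence at chr17:39846958-39848788 on the plus strand (GRCm38), had the most nuclear reads of any annotated gene, 1641 nuclear and 1215 cytoplasmic, a ratio of 1.38 (1.28 to 1.49).

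**Figure D4:**
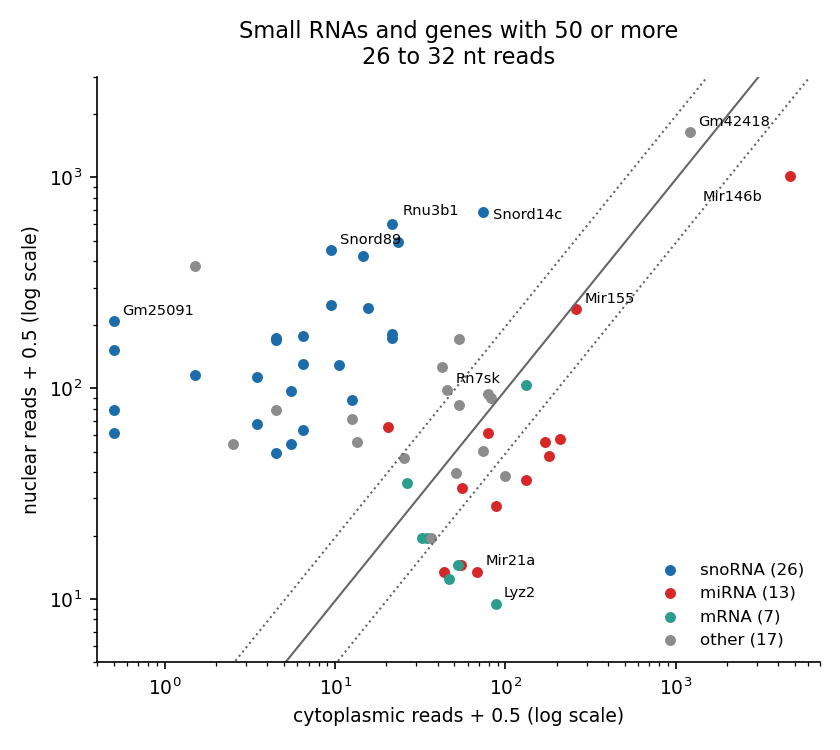
Nuclear reads against cytoplasmic reads, each plus 0.5 on a log axis, for the 63 small RNAs and genes with 50 or more reads of 26 to 32 nt, coloured by class. The solid line marks equal shares of the 2 libraries and the dotted lines a 2-fold difference. All 26 snoRNAs lie above the upper dotted line, and 9 of 13 miRNAs below the lower one.

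Members differed in how sharply they began. The share of a small RNA's member reads at its commonest 5′ end had a median of 100% over the 13 miRNAs and 84.7% over the 26 snoRNAs, against 15.8% over the 7 mRNAs and 5.38% over the 2 long non-coding RNAs. The latter are Malat1 and Gm26917, which lies at chr17:39843013-39846341, shortly before Gm42418. Whether the Gm26917 reads are rRNA was not tested. Of the Mir146b reads, 99.9% began at base 29 of the hairpin transcript. Of the Snord14c reads, 98.3% began at base 1 of its 86 nt, of the Snord55 reads 99.0% at base 2 of 79 nt, and of the Snord89 reads 96.1% at base 4 of 110 nt. Of the Rnu3b1 reads, 68.3% began at base 190 of 215 nt, near its 3′ end, and of the Snora24 reads 64.0% at base 104 of 130 nt. Gm42418 had reads starting at 313 positions, with 10.9% at the commonest. These shares pool both libraries.

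**Figure D5:**
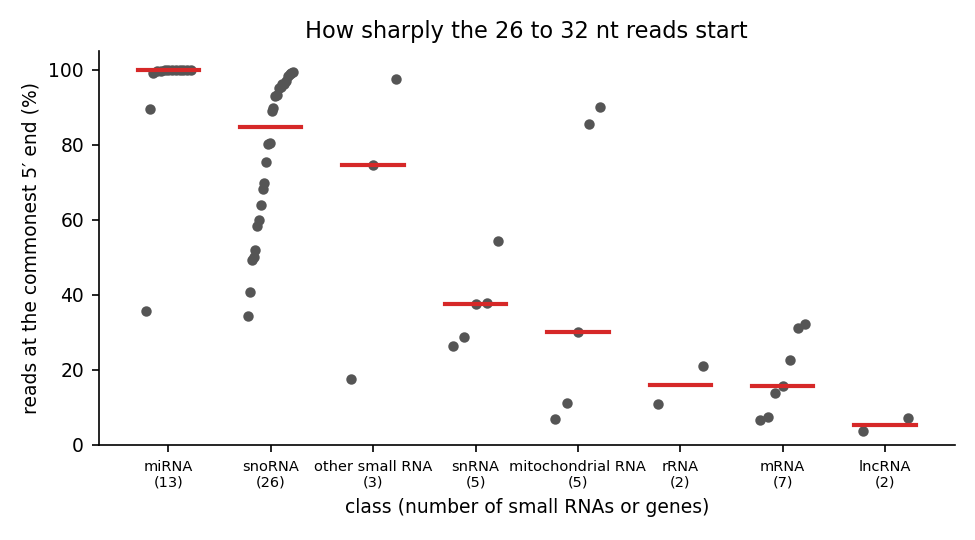
Share of 26 to 32 nt reads (%) at the commonest 5′ end, for each small RNA or gene with 50 or more such reads (points), by class, both libraries summed, with the class median as a red line. miRNAs (median 100%) and snoRNAs (84.7%) lie high, and rRNA, mRNA (15.8%) and long non-coding RNA (5.38%) low.

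The C/D box letters were most frequent in snoRNA members. TGATGA occurred within the first 14 nt of 52.8% of nuclear and 62.7% of cytoplasmic snoRNA reads. It occurred in 1.19% of nuclear and 0.932% of cytoplasmic mRNA reads, and in 6.11% of nuclear and 0.910% of cytoplasmic unmatched reads. Retained introns had it in 12.1% of nuclear and 7.14% of cytoplasmic reads. Over all members it was in 11.3% of nuclear and 1.51% of cytoplasmic reads. Of the 5602 nuclear reads with it, 3412 were snoRNA and 2056 unmatched. Reads of 18 to 25 nt had it in 7.18% of nuclear and 0.195% of cytoplasmic reads. The motif was searched on the read strand alone.

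The ping-pong overlap was sought among members that match both strands of the same transcript. There were 142 such pairs with 5′ ends overlapping by 1 to 25 nt, made from 83 sequences. At an overlap of 10 nt there were 3 pairs, against a median of 3.5 pairs and a highest number of 30, at 3 nt, among the other 24 overlaps. Counting for each pair the smaller read number of its partners, the nuclear library had 125 reads in all, 2 of them at 10 nt, and the cytoplasmic library had 0. Transcripts cover little transposon sequence, and overlaps outside them were not looked for here.

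Fragments of piRNA pathway mRNAs were not detected at 26 to 32 nt. Of 24 listed genes, 23 are annotated under the name used, none had a member read (a count of 0 allows 3 reads per library), and 8 had a read at any length, with 18 nuclear and 5 cytoplasmic reads in all. Piwil2, which encodes a Piwi protein, had 6 nuclear and 0 cytoplasmic reads of any length, Tdrd7 3 nuclear and 3 cytoplasmic reads and Exd1 3 nuclear and 1 cytoplasmic. Mybl1, which encodes the transcription factor of testis piRNA precursors, had 2 nuclear and 0 cytoplasmic reads, Tdrkh 1 nuclear and 1 cytoplasmic read, and Tdrd6, Henmt1 and Pnldc1 had 1 nuclear and 0 cytoplasmic reads each. Piwil1, Piwil4, Ddx4 and Mael had 0 reads of any length in both libraries. Of the germ cell markers Ddx4, Dazl, Piwil1, Piwil2, Mael and Sycp3, Piwil2 was the only one with a read. The 5 dendritic or myeloid markers Cd74, Lyz2, Itgax, H2-Aa and Ctss all had reads, 459 nuclear and 1008 cytoplasmic at any length, and 25 nuclear and 139 cytoplasmic at 26 to 32 nt. These are fragments in small RNA libraries and do not measure the level of the mRNAs.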

How the data were processed

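Per the labels' protocols, RNA of the cytoplasmic fraction and of the pellet with the nuclei was extracted with a mirVana kit and made into Illumina small RNA libraries. Per the submitters' processing notes, CASAVA and the mm10 build were used; how adapters were removed and reads mapped is not given in the sources used here. Each distinct sequence stands in the deposited table with its RPM (reads scaled to 1000000 of the library) in each library. Steps of the deposited RPM values were 0.500 nuclear and 0.490 cytoplasmic, so whole reads were recovered, for 100% of values within 0.1 read.

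Members were matched to the sense strand of GENCODE vM21 transcripts (GRCm38) over their full length, or, for small RNAs and rRNA, after up to 3 nt had been taken off the 3′ end, leaving 18 or more. A sequence with several matches went to the first class in a set order (small RNAs, rRNA, mitochondrial RNA and tRNA before mRNA and others). Long transcripts shared by more than 10 genes were not assigned to a gene (51 members, 69 nuclear and 43 cytoplasmic reads). Shares have exact Clopper-Pearson 95% intervals, and ratios of shares exact conditional intervals. A small RNA was counted higher or lower at 2-fold (0.5 reads added to each count) with an interval excluding 1, at 50 reads or more; folds against 0 reads use a floor of 3 reads. The matching and the rule were tested on simulated data with 3′ tails shorter than 3 nt and with counting error alone. That test does not cover tails of 3 nt or variation between libraries. Named items are the 10 most abundant sequences and small RNAs, the 5 most abundant unmatched sequences and those with both bases, in each library, the 10 largest and 10 smallest ratios, and every piRNA pathway gene with a read. The 3 mRNAs, Rnu12, Rn7sk, Rny1, Malat1 and families 6 to 16 include items chosen after their values were seen. The members, lists and tests were chosen with earlier results of these data known. Alternatives covered the length window, class order, trimming, scaling (edgeR 4.0.16 TMM, DESeq2 1.42.0 median of ratios, miRNA reads) and minimum reads. Python and R 4.3.3 were used.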

Additional observations from a re-analysis of the deposited data

How the results depend on the processing

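With 1 library a group, leaving out a replicate was not possible. No paired analysis was possible because each group has 1 library. The nuclear over cytoplasmic share of reads at 26 to 32 nt stayed above 1 under 4 of 5 alternatives (1.28 to 2.93), the 2 ends being reads outside the miRNA class and the 29 to 31 nt window, and reversed to 0.858 over distinct sequences. The mRNA ratio was 0.989 with an interval that includes 1. It was 1.82 with scaling to miRNA reads, 1.21 at 24 to 32 nt and 1.42 without sequences of 1 read, with intervals above 1. It was 1.04 (0.990 to 1.085) with mRNA and long non-coding RNA matched first. At 29 to 31 nt it was 1.53 (0.866 to 2.76), and these 2 intervals include 1. The miRNA ratio reversed to 1.17 (0.981 to 1.40) with exact matches alone and to 1.02 (0.190 to 5.48) at 29 to 31 nt. The rRNA ratio at 29 to 31 nt, 2.33, had an interval that includes 1. The unmatched ratio kept its direction under all 7 alternatives (2.23 to 6.34), and the snoRNA ratio under the 6 that gave a value (20.2 to 37.6). At 29 to 31 nt no cytoplasmic snoRNA read was present and no ratio could be formed. In the sums behind these, miRNAs were 40.5% of nuclear and 74.8% of cytoplasmic reads of all lengths.

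The base shares moved under 34 of 36 alternatives. For the nuclear library, the share of a 5′ U was 26.2% over distinct sequences, 25.5% without the 20 most abundant sequences, 18.4% over unmatched sequences, 36.2% at 24 to 32 nt and 21.7% without miR-146b. The share of A at position 10 was 26.1%, 22.8%, 18.7%, 32.5% and 19.6% under the same alternatives and 26.6% at 29 to 31 nt. The share of both bases was 7.90% over distinct sequences, 4.56% over unmatched ones, 19.0% at 24 to 32 nt, 5.71% at 29 to 31 nt and 5.21% without miR-146b. For the cytoplasmic library, the share of a 5′ U was 26.6%, 30.7%, 30.4%, 60.3%, 32.8% and 25.97% over distinct sequences, without the 20 most abundant, over unmatched sequences, at 24 to 32 nt, at 29 to 31 nt and without miR-146b. In that order, A at position 10 was 30.1%, 31.6%, 27.02%, 57.0%, 36.8% and 25.2%, and both bases 10.9%, 16.7%, 12.6%, 50.7%, 17.4% and 9.26%. The alternatives without miR-146b and with any 3′ removal were chosen after seeing the data.

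Against 35 of 63 small RNAs higher in the nuclear library, the count was 61 of 109 with a minimum of 20 reads and 108 of 4036 with none. By the most abundant sequence alone it was 20 of 31, and at 24 to 32 nt 85 of 200. Against 13 of 63 lower, the count was 21 of 63 with TMM factors, 21 with the median of ratios and 4 with scaling to miRNA reads. It was 44 of 4036 with no minimum, 7 of 31 by the most abundant sequence alone and 42 of 200 at 24 to 32 nt. TMM moved all log2 ratios by -0.75, the median of ratios by -0.84 and miRNA scaling by 0.88; all 26 snoRNAs stayed higher under each, whereas the rRNA median of 0.68 became -0.07, -0.16 and 1.56, and the mRNA median of -0.79 became -1.55, -1.63 and 0.09, in that order. Depth limits the lengths of 30 to 32 nt, with 116 nuclear and 84 cytoplasmic reads.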
